A study of Mus musculus with 4 samples.

Results

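Pax7 peaks at CpG-rich coding promoters are the deposited Pax7 ChIP-seq peaks whose summit lay within 1 kb of the transcription start site (TSS) of a protein-coding transcript and in CpG-rich sequence. CpG-rich means that the sequence from 250 bp before to 250 bp after the summit held at least 0.6 of the CpG dinucleotides expected from their C and G content. This rule took 2028 of the 20579 peaks (9.85%) and used no measured value. The peaks came from mouse iPax7 muscle progenitors, which are embryonic stem cells differentiated in culture that carry a doxycycline-inducible Pax7 transgene as a single copy beside the Hprt gene. Doxycycline at 1 µg/ml was given for 6 days from day 3, PDGFRα+FLK1- cells were sorted on day 5, and cells were collected on day 9. Pax7 was therefore made from a doxycycline promoter in every library. The group called Pax7 ChIP had 2 libraries and the group called Input had 2 libraries, from cells treated alike. The authors merged them into a single peak list, so the values below have no replicate error and every interval covers counting error only. Peak positions do not measure expression, so the labelled cell type could not be checked with its markers.

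Pax7 is a transcription factor with a paired domain and a homeodomain, each of which binds DNA, and it specifies muscle progenitors and satellite cells. CpG-rich promoters stay largely unmethylated in most cells and drive broadly used genes, such as those for ribosomes and splicing, as well as many developmental regulators. They are typically occupied by Sp1, NRF1, NF-Y and ETS family factors. The other promoter peaks, in CpG-poor sequence within 1 kb of a coding TSS (844 peaks), and the 17707 peaks away from coding TSSs serve as the comparison.

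The strongest of these promoter peaks illustrate what lay under the summits. The stretches below are shown because they belong to the 15 peaks of highest fold enrichment or to Mef2a, and fall outside annotated exons. Each is the plus strand of mm9 from 40 bp before to 40 bp after the summit. Capitals mark the letters GTCACG, a core of the paired-domain site, or GTTCCG, a related word described below, on either strand.
Hdac5, chr11:102091564-102091644: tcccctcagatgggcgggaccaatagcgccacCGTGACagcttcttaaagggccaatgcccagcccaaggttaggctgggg
Snai1, chr2:167363593-167363673: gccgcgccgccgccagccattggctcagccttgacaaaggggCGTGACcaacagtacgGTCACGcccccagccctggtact
Spsb1, chr4:149329236-149329316: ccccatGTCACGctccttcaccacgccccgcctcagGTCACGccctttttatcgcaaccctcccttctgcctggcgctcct
Iqgap3, chr3:87885862-87885942: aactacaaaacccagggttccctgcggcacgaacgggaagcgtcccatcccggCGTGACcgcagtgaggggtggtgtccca
Tubb2c, chr2:25080309-25080389: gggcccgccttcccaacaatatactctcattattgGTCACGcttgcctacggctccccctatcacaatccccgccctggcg
Zfp688, chr7:134565600-134565680: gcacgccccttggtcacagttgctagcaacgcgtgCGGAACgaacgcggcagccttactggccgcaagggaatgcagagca
Stk40, chr4:125781032-125781112: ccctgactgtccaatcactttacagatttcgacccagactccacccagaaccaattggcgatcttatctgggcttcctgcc
Serbp1, chr6:67216339-67216419: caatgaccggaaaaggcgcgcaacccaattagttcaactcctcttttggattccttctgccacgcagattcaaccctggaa
Mef2a, chr7:74518197-74518277: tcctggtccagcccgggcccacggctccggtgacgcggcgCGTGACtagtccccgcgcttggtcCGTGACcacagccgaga

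The promoter of Hdac5, which encodes a class IIa histone deacetylase that restrains Mef2 factors, held the highest fold enrichment of the whole list. Its summit lay 124 bp upstream of the TSS, with 28.0-fold enrichment and 174 ChIP reads over the summit (95% exact Poisson interval 149 to 202) against a local background of 5.22 reads. Among the CpG-rich promoter peaks, Snai1, which encodes a zinc-finger repressor of epithelial genes, came next and stood at rank 19 of all 20579, with 21.7-fold enrichment and 124 reads (103 to 148), 62 bp upstream. The peak of Stk40, a kinase-like protein, had 20.3-fold enrichment and 127 reads at 129 bp upstream. Mphosph8, which encodes a reader of histone H3 lysine 9 methylation in the HUSH silencing complex, had 19.4-fold enrichment and 114 reads at 23 bp upstream.

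Spsb1, which encodes a substrate adaptor of a ubiquitin ligase, had 19.2-fold enrichment and 109 reads. The next peak, at 17.4-fold, lay 19 bp upstream of Gtf2e1, which encodes a subunit of the general transcription factor TFIIE, and also within 1 kb of a TSS of Rabl3. The other 9 of the 15 highest were nearest to Fam36a, Arhgap1, Serbp1, Zfp688, Iqgap3, Tssc4, Tubb2c, Zc3h6 and Gne, with 14.8-fold to 17.3-fold enrichment and 84 to 155 reads. The Fam36a summit was the farthest from a TSS of the 15, at 957 bp upstream. Among these genes, Tubb2c encodes a beta-tubulin, Iqgap3 a cytoskeletal scaffold and Gne the enzyme that starts sialic acid synthesis.

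Mef2a, which encodes a partner of the myogenic bHLH factors, had 2 of these peaks, both weak. The summit 493 bp upstream had 4.35-fold enrichment and 24 reads (15.4 to 35.7), and the printed stretch there holds GTCACG on the minus strand at 2 places. The summit 183 bp upstream had 3.57-fold enrichment and 25 reads (16.2 to 36.9), with neither word within 50 bp. The read intervals of these 2 peaks overlap almost fully.

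Fold enrichment ran from 1.60 to 28.0 with a median of 4.99 (quartiles 4.17 and 6.43), beside medians of 4.88 in CpG-poor promoters and 5.23 away from coding TSSs. At least 5-fold enrichment was reached by 1010 of 2028 (49.8%, 95% Wilson interval 47.6 to 52.0), while 54.9% of all 20579 peaks reached it. The difference from CpG-poor promoter peaks was 3.24 percentage points (95% Newcombe interval -0.77 to 7.23), an interval that includes 0. The difference from peaks away from coding TSSs was -6.12 points (-8.41 to -3.82). At least 10-fold enrichment was reached by 125 (6.16%, 5.198 to 7.296), against 6.99% of all peaks. It was reached by 4.15% of CpG-poor promoter peaks, a difference of 2.02 points (0.177 to 3.63), and the difference from peaks away from coding TSSs was -1.06 points (-2.10 to 0.132).

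The whole-read pileups behind these folds could be recovered from the fold and p-value columns. Reads over the summit numbered 17 to 255, and the middle peak had 32 (interquartile range 27 to 42), beside a median of 33 in CpG-poor promoters and 35 away from coding TSSs. The background that the caller set against them had a median of 5.22 reads. It stood at the genome-wide minimum of 4.70 reads, meaning that no local excess of input raised it, for 30.9% of the promoter peaks (28.9 to 32.9). That share was 23.9% (21.2 to 26.9) in CpG-poor promoters and 23.2% (22.6 to 23.9) away from coding TSSs, both with intervals below that of the CpG-rich promoters. A median peak thus rested on few reads, and a difference between neighbouring folds near the median was not detectable at this depth. Peaks next to the CpG limit of the rule had folds above and below the median of 4.99. Just above the limit, Dem1 had 6.45-fold enrichment and Esrra 3.29-fold. Just below it, Tmem184c had 5.76-fold and Bcl7a 4.29-fold.

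Per length of sequence, CpG-rich coding promoters held Pax7 summits more densely than the other 3 territories examined. They made up 12.2 Mb, or 0.476% of the sequenced genome, and held 167 summits per Mb (95% exact Poisson interval 159.5 to 174). CpG-poor promoter sequence held 18.0 per Mb, and the ratio of the 2 densities was 9.24 (95% exact interval 8.52 to 10.0). CpG-rich sequence over 1 kb from any coding TSS held 32.7 per Mb from 559 peaks, a ratio of 5.10 (4.64 to 5.61). The remaining sequence, CpG-poor and away from coding TSSs, held 6.92 per Mb, a ratio of 24.1 (23.0 to 25.2).

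Summits concentrated immediately upstream of the TSS. Of the 2028, 1377 lay upstream of the nearest coding TSS (67.9%, 65.8 to 69.9), whereas 39.0% of the eligible CpG-rich bases were upstream. The share upstream was 61.5% (58.2 to 64.7) for CpG-poor promoter peaks. The share of eligible CpG-poor bases upstream was not computed, so these 2 shares of peaks cannot be compared directly. The 100 bp just before the TSS held 666 summits at 444 per Mb (411 to 479.6). The first 100 bp of the transcript held 185 per Mb (164 to 207) and the next 100 bp 66.3 per Mb (53.1 to 81.9). Within 200 bp of a TSS lay 67.7% of the promoter peaks (65.6 to 69.7), against 44.7% of the eligible CpG-rich bases. The share was 32.2% (29.2 to 35.5) for CpG-poor promoter peaks, whose eligible bases lie differently around the TSS. Their summits were also densest there. They stood at 46.7 and 41.2 per Mb in the 2 bins of 100 bp before the TSS, against 18.0 over all CpG-poor promoter sequence. By annotation at the summit base, 49.3% were intergenic, 23.5% in a UTR, 18.9% in an intron, 4.24% in coding sequence and 4.14% in a noncoding exon. Promoters with coding TSSs on both strands within 1 kb held 14.3% of the peaks (12.8 to 15.9) and 10.4% of the eligible bases.

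**Figure D1:**
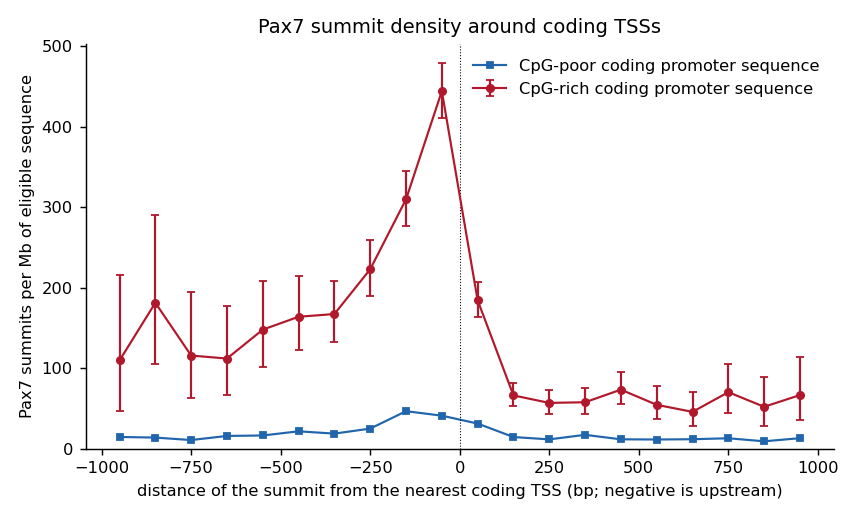
Pax7 summits per Mb of eligible sequence (y axis) in 100-bp bins of distance from the nearest coding TSS (x axis, bp, negative upstream), in CpG-rich (red, with 95% exact Poisson intervals) and CpG-poor coding promoter sequence (blue). The red line peaks at 444 per Mb in the bin just upstream of the TSS and falls to 66.3 per Mb between 100 and 200 bp downstream.

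The paired-domain core was found at the summits of these peaks far more often than beside them. Windows of 50 bp to either side of the summit were searched on both strands for 14 motifs, and the same peaks were searched in windows centred 500 bp to the right and left. GTCACG was in 437 summit windows (21.5%, 19.8 to 23.4), in 2.76% of the right flanks and in 2.96% of the left flanks, 7.53 times the mean of the flanks. McNemar's exact test, two-sided and Benjamini-Hochberg adjusted over the 14 motifs, gave p = 1.22e-79 against the right flank and 4.07e-78 against the left. The homeodomain dimer site TAATNNATTA was in 3 summit windows (0.148%, 0.0503 to 0.434), beside 4 right flanks and 2 left flanks.

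As a reference, 2 unrelated words with a CpG were searched alongside. GACTCG and CCGTAG were each in 4.14% of summit windows (3.36 to 5.10), 1.49 and 2.07 times the flanks, with adjusted p = 0.0144 and 0.00046 against the right flank by the same exact test. A small excess at the summit was thus measured for words that are no known Pax7 site, and it touches every ratio near those sizes.

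The shares in other Pax7 peaks are set beside these as values only, since GTCACG holds a CpG and the rule split the peaks by CpG content. CpG-poor promoter peaks held it in 14.6%, a difference of 6.97 points (3.90 to 9.86), and peaks away from coding TSSs in 9.78%, a difference of 11.8 points (9.98 to 13.7). The words GACTCG and CCGTAG were likewise in fewer of the CpG-poor promoter peaks (1.90% and 1.18%) and of the peaks away from coding TSSs (1.19% and 1.22%). Against their own flanks, the ratio for the core was 8.20 in CpG-poor promoter peaks and 9.14 away from coding TSSs, so that the 7.53 of the CpG-rich promoter peaks was the lowest of the 3. Of 9469 genes with a CpG-rich coding promoter and no Pax7 peak within 1 kb of a TSS, 6.13% held it in a window of the same length placed 56 bp upstream of the TSS, the median position of the peaks. The difference was 15.4 points (13.6 to 17.3). Per 100 peaks, the bins just left and right of the summit held 10.6 and 12.9 cores in CpG-rich promoters and 4.98 and 5.45 away from coding TSSs. From 150 bp outwards the CpG-rich promoters held 1.23 to 2.07 cores per 100 peaks in each 50-bp bin.

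**Figure D2:**
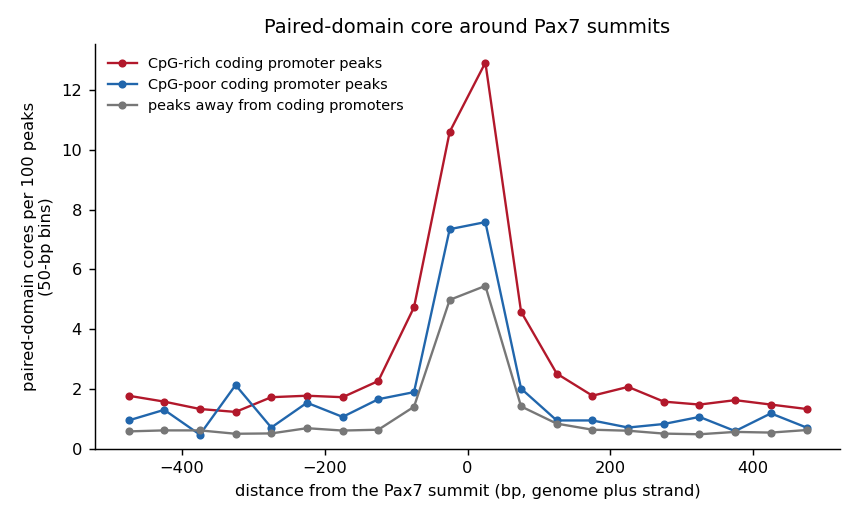
Paired-domain cores per 100 peaks (y axis, 50-bp bins) against distance from the Pax7 summit (x axis, bp), for CpG-rich coding promoter peaks (red), CpG-poor coding promoter peaks (blue) and peaks away from coding promoters (grey). All 3 lines peak at the summit, and the red line is highest there at 12.9 per 100 peaks.

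The letters after the core differed in how often they occurred. GTCACGCC was in 117 summit windows, GTCACGCT in 68 and GTCACGGT in 66, which were 13, 27.2 and 13.2 times the flanks. GTCACGTG, which also holds the E-box word CACGTG, was in 27 windows, 3.6 times the flanks, and was the form that promoters without a Pax7 peak held most often (2.48%). Of 466 cores in the summit windows, 48.7% were followed by C and 35.6% by G. GTCACGCC was commoner in these promoter peaks (5.77%) than in peaks away from coding TSSs (0.904%), while GTCACGGT was in 3.25% and 2.73% of them.

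When all 6-letter words present in at least 2% of the summit windows (1690 words) were ranked by their ratio to the flanks, GTCACG came first and the overlapping TCACGC, at 7.07 times, came second. Next came GTTCCG, which differs from the core at the 2 letters after GT. It was in 343 summit windows (16.9%, 15.3 to 18.6), 6.53 times the flanks, and in 5.41% of the promoters without a Pax7 peak. In CpG-poor promoter peaks it was in 5.57% (4.21 to 7.33) and away from coding TSSs in 2.39% (2.17 to 2.62), 3.03 and 3.25 times their own flanks. The words GTCCCG and GTTACG, with the remaining combinations of those 2 letters, were 1.43 and 2.33 times the flanks. GTTCCG was searched further after its values were seen, so what follows describes it. It was followed by C at 48.0% and by G at 36.3% of 375 sites, and its other strand always holds the ETS core GGAA. In 127 of the 343 windows it was followed by G, which puts the CCGGAA of the ETS site searched here on the other strand.

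The 2 words rarely shared a window. Both were in 44 windows, GTCACG alone in 393, GTTCCG alone in 299 and neither in 1292 (63.7%). Together they were in 36.3% of the promoter peaks (34.2 to 38.4), 19.7% of CpG-poor promoter peaks (17.1 to 22.5) and 11.97% of peaks away from coding TSSs (11.5 to 12.5), which were 6.75, 5.53 and 6.66 times the flanks of each set. Peaks with GTCACG alone had a median fold enrichment of 5.58 and peaks with GTTCCG alone 5.06, beside 4.80 with neither. At least 10-fold enrichment was reached by 14.5% (11.4 to 18.3), 5.02% (3.06 to 8.11) and 3.95% (3.02 to 5.15) of these 3 sets. Among the 15 strongest peaks, 7 held GTCACG, including Hdac5, Snai1, Mphosph8, Spsb1 and Gtf2e1. Arhgap1 and Zfp688 held GTTCCG, and the other 6, including Stk40 and Serbp1, held neither.

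Stronger promoter peaks held the core more often. In 4 groups of near-equal size, from the lowest to the highest fold enrichment, the share with GTCACG was 14.1%, 17.5%, 21.5% and 33.1%, while the flanks stayed between 2.56% and 3.45%. It was 50.0% (40.4 to 59.6) in the 100 peaks of highest fold. Peaks with the core had at least 5-fold enrichment in 63.2% of cases and those without in 46.1%, a difference of 17.0 points (11.8 to 22.0). The same difference was 15.9 points (6.36 to 24.9) in CpG-poor promoters and 8.54 points (6.12 to 10.9) away from coding TSSs.

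**Figure D3:**
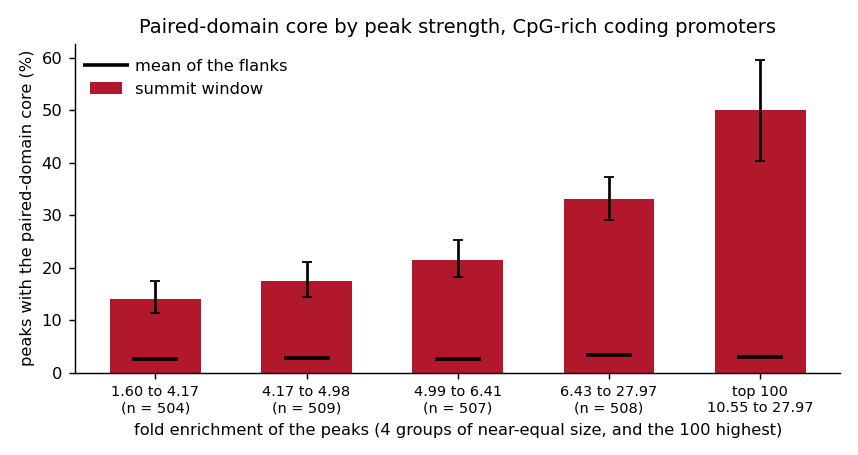
Share of CpG-rich coding promoter peaks with the paired-domain core in the summit window (y axis, %, bars with 95% Wilson intervals) and the mean of the flanks (black dashes), for 4 groups of rising fold enrichment and for the 100 highest folds (x axis). Bars rise from 14.1% to 33.1% over the 4 groups and reach 50.0% in the top 100, with flanks at no more than 3.45%.

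By position, the core was most frequent in the promoter peaks whose summit lay over 200 bp downstream of the TSS (82 of 270, 30.4%, 25.2 to 36.1). In the 200 bp upstream of the TSS, the zone with the most summits, it was in 190 of 992 (19.2%, 16.8 to 21.7), and the difference was 11.2 points (5.44 to 17.4). Median folds in these 2 zones were 4.91 and 5.04.

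Motifs of general promoter factors were at the summits too, less often than in promoters without a Pax7 peak for the GC box and NRF1 and more often for the CCAAT box. The GC box GGGCGG, the site of Sp1 family factors, was in 27.8% of summit windows (25.9 to 29.8), 2.03 times the flanks, and in 52.6% of the promoters without a peak, a difference of -24.8 points (-27.0 to -22.6). The NRF1 site GCGCANGCG was in 4.59% against 8.05% of promoters without a peak (-3.46 points, -4.46 to -2.33). The ETS site CCGGAAG was in 8.78%, 5.09 times the flanks and 0.318 points above promoters without a peak (-0.973 to 1.74). The CCAAT box, bound by NF-Y, was in 23.4%, 2.39 times the flanks and 3.95 points above promoters without a peak (1.99 to 6.00). The cyclic AMP response element TGACGTCA was in 30 windows (1.48%), beside 2 right and 3 left flanks, and in 2.06% of promoters without a peak. Promoters without a peak were placed by their TSS and not by a summit, so these windows and those of the peaks are not centred alike.

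Sites known from muscle and mesenchymal enhancers were less frequent at CpG-rich promoter summits than at other Pax7 peaks. These words hold no CpG and the rule split the peaks by CpG content, so the shares are values only. Each was more frequent than in CpG-rich promoters without a Pax7 peak. The differences were 1.32 points (0.308 to 2.48) for CAGCTG, 1.99 (1.09 to 3.05) for GGAATG and 0.758 (0.210 to 1.46) for TGANTCA. For the unrelated reference words the same difference was 1.15 points (0.290 to 2.16) for CCGTAG and -0.0295 (-0.920 to 1.00) for GACTCG. Values of the size of those for CAGCTG and TGANTCA are therefore not particular to muscle enhancer sites. The myogenic E-box CAGCTG was in 5.62% (4.70 to 6.71), 1.42 times the flanks, against 14.5% in CpG-poor promoters (-8.83 points, -11.5 to -6.37) and 16.9% away from coding TSSs. The TEAD site GGAATG was in 4.68%, 0.955 times the flanks, against 11.8% in CpG-poor promoters (-7.16 points, -9.66 to -4.92). The AP-1 site TGANTCA was in 1.82%, 0.796 times the flanks, against 4.38% in CpG-poor promoters (-2.56 points, -4.24 to -1.19). The remaining sites, CACGTG and the YY1 site ATGGCGG, were in 3.55% and 3.25%.

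**Figure D4:**
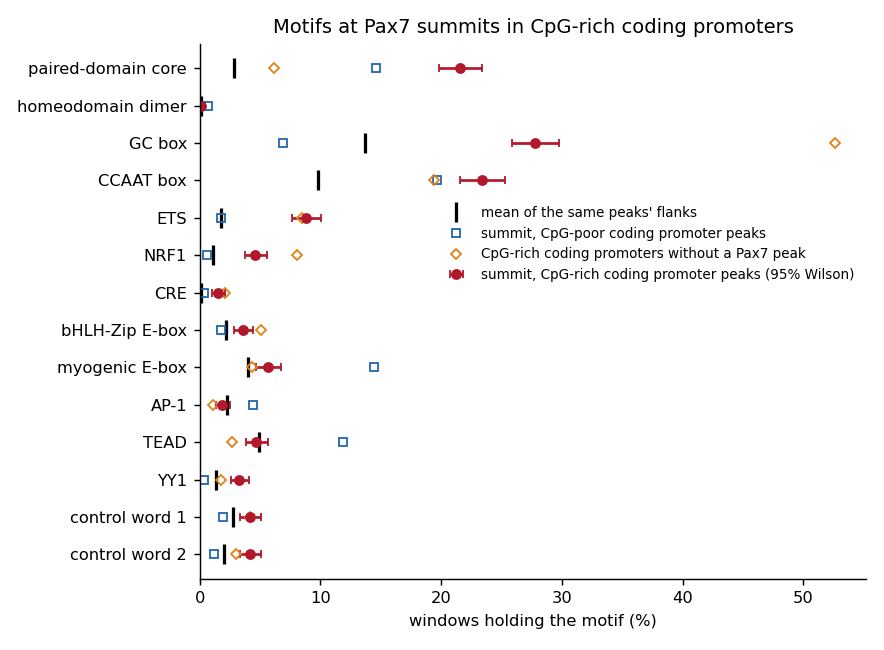
Share of 101-bp windows holding each motif (x axis, %) for CpG-rich coding promoter peaks at the summit (red, 95% Wilson intervals) and in their flanks (black bars), CpG-poor coding promoter peaks (blue squares) and CpG-rich coding promoters without a Pax7 peak (orange diamonds). The paired-domain core is 21.5% at the summit and 6.13% in promoters without a peak, whereas the GC box is 27.8% and 52.6%.

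Over genes, 2175 of the 12079 with a CpG-rich coding promoter held such a peak within 1 kb of a TSS, or 18.0% (17.3 to 18.7). Among the 10129 coding genes without a CpG-rich TSS, 313 held any Pax7 peak there (3.09%, 2.77 to 3.45). Most promoters held a single peak: 115 genes had at least 2 and 5 genes had 3. The 5 were Arid1a, which encodes a subunit of the SWI/SNF chromatin remodeller, with folds of 4.56 to 6.93, the TALE homeobox repressor gene Tgif1, with 4.64 to 6.39, the unnamed gene model Gm7461, with 3.43 to 7.04, and Cep170 and Sdccag8. The last 2 encode centrosome proteins and were both within 1 kb of the same peaks, with folds of 5.10 to 6.08. The peaks near 2 or more coding genes numbered 299.

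Genes of the basic gene-expression machinery had such peaks at shares above the 18.0% of all genes with a CpG-rich promoter. A peak counted for every gene with a coding TSS within 1 kb, so the peak of a listed gene can be nearest to another gene. Of 64 splicing factor genes, 23 held a peak (35.9%, 25.3 to 48.2), led by Snrpb at 10.3-fold, a core protein of spliceosomal snRNPs, and by Srsf10, Hnrnpc and Hnrnpa1 at 6.40-fold to 7.32-fold. Of 78 cytosolic ribosomal protein genes, 23 did (29.5%, 20.5 to 40.4), led by Rpl9 at 9.59-fold and Rpl13a, Rps19 and Rps7 at 7.89-fold to 8.00-fold. The Rpl9 peak was nearest to Lias. Of 69 mitochondrial ribosomal protein genes, 20 did (29.0%, 19.6 to 40.6), with Mrps15 at 12.9-fold and Mrpl50 at 10.5-fold. The intervals of these 3 lists lie above 18.0%. The median over genes of their highest fold was 4.88, 4.56 and 6.01, beside 5.06 over all genes with such a peak.

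For the other lists of the same kind the interval included 18.0%. Proteasome genes held a peak in 10 of 36 (27.8%, 15.8 to 44.0), led by Psmc6 at 8.54-fold. Mediator genes did in 8 of 33, with Med6 at 14.5-fold and Med23 at 6.08-fold. Oxidative phosphorylation genes did in 14 of 69 (20.3%, 12.5 to 31.2), with Ndufa13 at 13.2-fold, Atp5g3 at 12.6-fold and Ndufb8 at 10.0-fold. The Ndufa13 peak was nearest to another coding gene. Replication-dependent histone genes on the list did in 13 of 61, with folds up to 6.45. The 61 did not include Hist2h4, nearest to a peak of 12.3-fold. Since histone genes are near-identical copies, reads that mapped to several of them were not counted. Lysosome and autophagy genes did in 6 of 36, led by Atp6v1a, a subunit of the proton pump, at 9.20-fold.

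Developmental and chromatin regulators with CpG-rich promoters were at shares whose intervals also included 18.0%, most of them with a lower point value. Of 26 myogenic and somite regulators, 3 held a peak (11.5%, 4.00 to 29.0), among them Mef2a at 4.35-fold and the chemokine receptor gene Cxcr4 at 3.68-fold. Of 28 Hox genes, Hoxa5, Hoxa11 and Hoxd3 did, at 4.19-fold to 4.66-fold. Of 24 Polycomb genes, Mtf2 and Pcgf2 did, and of 16 neural crest and neural tube regulators, Sox9 did at 7.41-fold. These 16 did not include Snai1, with its 21.7-fold peak, or Tcfap2a, nearest to a 6.975-fold peak. A list of 31 cell-cycle genes covered cyclins, cyclin-dependent kinases and their inhibitors, and the E2F and Rb families. Of these, the inhibitor gene Cdkn1b at 6.44-fold and Ccne2 at 5.41-fold held a peak (6.45%, 1.79 to 20.7). The cyclin genes Ccnl1 and Ccng2 were not among them and were nearest to peaks of 11.7-fold and 7.42-fold. Of 13 CTCF and cohesin genes, Rad21, the cohesin kleisin, did at 6.63-fold.

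Of 17 genes for histone H3 lysine 4 methyltransferase complexes, Mll1, Kdm6a, Setd1a and Dpy30 did, with Mll1 highest at 6.45-fold. Of 8 histone deacetylase genes, Hdac5 and Hdac10 did, the latter at 8.02-fold. Among 18 AP-1 and early response genes, Klf6, Atf3 and Nr4a1 did, at 11.7-fold, 8.00-fold and 4.71-fold. The 4 gene groups that the study defined in these same cells around Pax7 enhancers and expression, and which are therefore not independent of these peaks, had 65 of 331 (Active I, 19.6%), 95 of 387 (Active II, 24.5%), 80 of 398 (Active III, 20.1%) and 63 of 327 (Primed, 19.3%). The interval of Active II was 20.5 to 29.1.

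**Figure D5:**
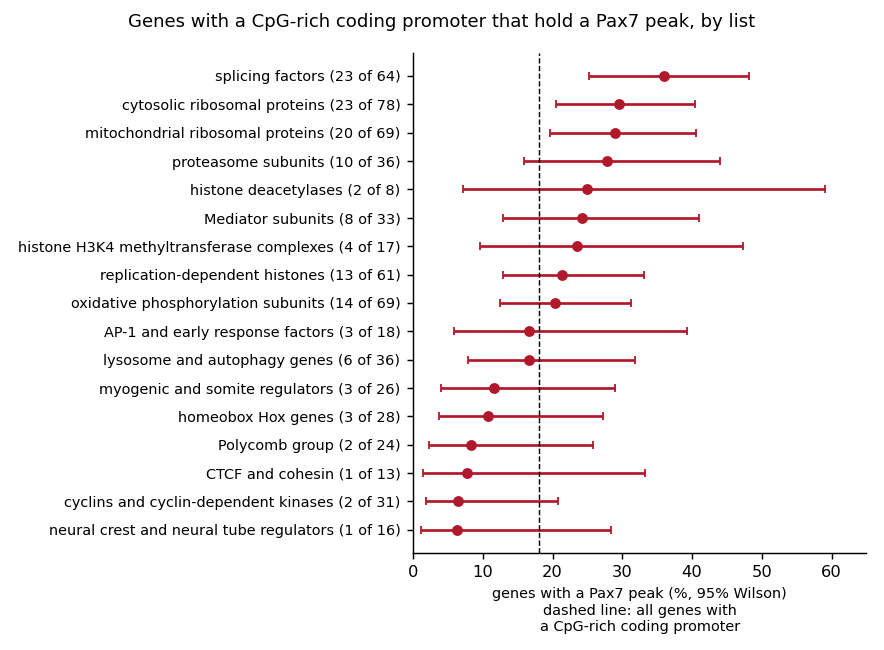
Share of genes with a CpG-rich coding promoter that held such a Pax7 peak within 1 kb of a TSS (x axis, %, points with 95% Wilson intervals) for 17 gene lists, with counts in the labels. The dashed line marks 18.0%, the share over all such genes, and the intervals of splicing factors, cytosolic and mitochondrial ribosomal proteins lie above it.

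Another Pax7 summit lay within 10000 bp of 30.9% of them (28.9 to 32.9), 5.15 points below CpG-poor promoter peaks (36.0%; interval of the difference, rich minus poor, -8.99 to -1.38). Within 1000 bp the shares were 11.7% (10.4 to 13.2) in CpG-rich promoters, 12.8% in CpG-poor promoters and 7.96% away from coding TSSs, and the difference from the last was 3.72 points (2.34 to 5.25).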

How the data were processed

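ChIP-seq was performed for Pax7 with input as control, in 2 libraries each. Per the methods of the authors and per the labels, single-end reads were aligned to mm9 with Bowtie2, uniquely mapped reads were kept, duplicates were removed with Picard, and MACS2 called peaks at q 0.01 on merged libraries. The deposited peak list holds per peak a ratio column (fold enrichment over local background), p-values and q-values as −log10, a display score, and the summit offset. All these values are pooled over the libraries by the authors, so no replicate spread exists. The study states read totals per library, which were not used here, and the peak list holds none.

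Here, summits were placed on the mm9 reference (NCBIM37) and GENCODE vM1 protein-coding TSSs. ChIP reads and background at each summit were solved from the deposited fold and −log10 p-value columns with the formulas of MACS2, and reproduced both columns within 0.002 of the −log10 p for 20579 of 20579 peaks. The method recovered 100% of 2955 simulated peaks. Shares have Wilson intervals, differences of shares Newcombe intervals and densities exact Poisson intervals, all at 95%. Summit and flank were compared by McNemar's exact test. The 501-bp windows, 1 kb limit, motifs, gene lists (matched by symbol) and named-gene rule were chosen with earlier results of these data known. Named genes were the nearest coding genes of the 15 highest folds, the 5 genes with most such peaks, up to 4 per list, and Mef2a and Hdac5, apart from a gene that is not reported here. Densities count every sequenced base of chromosomes 1 to 19 and X, mappable or not. Python 3.11.15, numpy 2.4.6, pandas 2.3.3 and scipy 1.17.1 were used. Alternatives changed the CpG and TSS limits, peak thresholds, merging, motif windows and flanks. The display score was not used.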

Additional observations from a re-analysis of the deposited data

How the results depend on the processing

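The CpG limit, GC limit, TSS distance, peak thresholds, merging of close summits, motif windows and flanks were varied singly, 67 values in all, of which 3 came from alternatives chosen after seeing the data (the core not followed by TG, and peaks with a background over 20 reads left out). The excess of the paired-domain core at summits over flanks kept its direction and stayed past the threshold in all of its alternatives, at 5.28 to 11.1 times the flanks. Every alternative kept a CpG limit at the summit, which favoured this word there. The difference from CpG-poor promoter peaks in the core ran from 4.53 to 10.9 points over its alternatives, a comparison that rests on the CpG content by which the groups were split. The difference in the share of at least 5-fold enrichment stayed positive (0.335 to 3.73 points) with an interval that included 0. With CpG observed/expected of at least 0.75, the density was 199 summits per Mb and 16.5% of genes held a peak. With GC of at least 55% added, the core share was 24.5%, the density 158 per Mb and the gene share 14.3%. Within 500 bp of a TSS, the density was 189 per Mb, the gene share 16.5% and the share upstream 70.0%. With peaks of at least 5-fold enrichment only, 1010 peaks remained, with the core in 27.3%, 83.0 summits per Mb and 9.20% of genes. With −log10 q of at least 5, 54.9% had at least 5-fold enrichment, the median fold was 5.16, the density 151 per Mb and the gene share 16.4%. With windows of 25 and 100 bp to either side, the core share was 14.7% and 29.0%. The thresholds on fold and q remove peaks by construction. No paired analysis was possible because the deposited peaks were called on merged libraries, and for the same reason no library could be left out. With a median of 32 reads at a summit, counting error limits any single fold.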

Other observations

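Relative to CpG-rich coding promoters without a Pax7 peak, the words most over-represented at the promoter summits were not the paired-domain core but AT-rich words. Some of these hold TAAT, the letters that homeodomains bind. The word CTAATT was in 5.72% of the summit windows and 0.898% of promoters without a peak, a ratio of 6.37, ATTAGT had a ratio of 5.99 and TAATCG 5.67. Against the peaks' own flanks CTAATT was only 2.02 and the word ATTAGT only 1.77 times as frequent, ranked 142 and 222 of 1690, whereas TAATCG was 3.92 times as frequent and ranked 11. Some other AT-rich words were high only against promoters without a peak. AATTAT and AATTAA had ratios of 5.01 and 4.38 there, but 0.967 and 0.828 against the flanks. Whether the windows of peaks and of promoters without a peak differed in base composition was not tested. In peaks away from coding TSSs CTAATT was in 13.5%.

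The promoter peaks included 3 with a background above 20 reads. The Sfi1 peak had 255 reads against a background of 159 and the lowest fold of all 20579 peaks, 1.60, and 2 peaks at Gm17379 near the end of the X chromosome had 151 and 91 reads against backgrounds of 49.2 and 51.1.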
